A study of Mus musculus with 6 samples.

Results

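The SLAM family receptors and their adaptor SAP were followed in mouse CD8+ T cells that carry the OT-I transgenic receptor. The 8 genes were chosen by family membership and symbol, with earlier results of these data already known. They were 7 receptor genes (Slamf1, Slamf6, Slamf7, Ly9, Cd48, Cd84 and Cd244a) and Sh2d1a, which encodes SAP, out of 55414 genes in the deposited table. Poly(A) RNA of cells from spleen and lymph nodes was sequenced in 6 libraries, 2 in each of 3 groups. N4 cells were OT-I cells taken 4 days after the N4 peptide, and T4 cells were OT-I cells taken 4 days after the T4 peptide, both given with antibodies to OX40 and to 4-1BB. Naive OT-I cells, for which the labels name no peptide or antibody, complete the set. N4 is the ovalbumin peptide that the OT-I receptor binds strongly and T4 a variant that it binds weakly, so the study sets a strong and a weak antigen against the resting state, and against each other. The costimulating antibodies were common to the N4 and T4 groups and are not separable from the peptides in either comparison with naive cells. The sources used here give no age, sex or sorting gate and do not say whether replicates were separate mice, so a p-value reflects the spread between libraries alone, part of which may be technical.

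SLAM receptors are surface proteins of the immunoglobulin superfamily found on blood cells. Most bind a copy of themselves on a neighbouring cell, whereas CD244 (2B4) binds CD48, a receptor that is anchored in the membrane by a lipid and has no cytoplasmic tail. The other receptors carry tyrosines in their tails, in a pattern called the immunoreceptor tyrosine-based switch motif. In most of these receptors the phosphorylated motif is bound by SAP, which recruits the kinase Fyn, or by SHP phosphatases when SAP is missing. In CD8+ T cells the family is known for its part in the killing of B cells, and Slamf6 and Cd244a are commonly read as markers of stem-like and of exhausted cells.

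The 7 receptor genes lie side by side within 394.0 kb of chromosome 1 (chr1:171559193-171953170, GRCm38), in the order Cd244a, Ly9, Slamf7, Cd48, Slamf1, Cd84 and Slamf6, with Ly9 and Slamf7 on the minus strand. Sh2d1a lies on the X chromosome (chrX:42502453-42529330, plus strand). In the GENCODE M21 transcripts, whose coordinates are those of GRCm38, the switch motif was searched in frame in each coding sequence, on the coding strand alone. It was found at 4 places in Cd244a-201, at 2 in Slamf1-201, Ly9-202, Cd84-205, Slamf6-201 and Slamf6-207, and at 1 in Slamf6-204, Slamf7-201, Slamf7-203 and Slamf7-204. Of 21614 protein-coding genes, 7.95% held at least 1 match and 0.606% held 2 or more. The single match in Cd48, at codon 105 of 240, lies in a gene whose protein has no tail, so a match is a description of the letters and not a docking site. The codons of Slamf1, Cd244a, Slamf7 and Slamf6 are shown because annotated transcripts of these receptors keep or lose them. Capitals mark the 18 bases of the motif and lower case the 6 bases on either side, and the coordinates are those of the capitals.
Slamf1-201, first site, chr1:171792339-171792356, plus strand: agccttACTATTTATGCCCAAGTAcagaaa
Slamf1-201, last site, chr1:171799588-171799605, plus strand: cccaccACAGTTTATGCCAGTGTGacactg
Cd244a-201, first site, chr1:171577838-171577855, plus strand: cctttgACAATATATGAATATGTCaaggac
Cd244a-201, next site, chr1:171579144-171579161, plus strand: agaggcACCATGTACTCTATGATAcagtgc
Cd244a-201, next site, chr1:171580788-171580805, plus strand: aaatgtACAGTATATTCAGTAGTCcagcct
Cd244a-201, last site, split by an intron, chr1:171581685-171582806, plus strand: agttgtACCGTGTACGAGGAGGTTggaaac
Slamf7-203, only site, chr1:171636327-171636344, minus strand: ccaaacACATTTTATTCCACTGTGcagatc
Slamf6-207, first site, chr1:171939437-171939454, plus strand: gggaacACTGTGTATGCACAAGTCactcgt
Slamf6-207, last site, chr1:171941664-171941681, plus strand: tccatgACAATTTACTCCATAGTTaatcat

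The library totals were 269033066 to 335968843 estimated counts, and levels below are CPM, which are counts put on the same total in every library, scaled with TMM factors, unless per-length values are named. Summed markers of CD8 T cells were 4731 and 6176 CPM in N4, 3724 and 4046 CPM in T4, against 5502 and 7342 CPM in naive libraries. These 7 genes did not move together. Cd8b1 was at 187 and 164 CPM in N4, 433 and 416 CPM in T4, and 703 and 321 CPM in naive libraries. Cd3d was at 2147 and 3013 CPM in N4, 1367 and 1573 CPM in T4, and 1888 and 2739 CPM in naive libraries. Their median log2 fold change was -0.89 for N4 against naive and -0.47 for N4 against T4. None of the 7 had an edgeR adjusted p under 0.05 in any comparison. Cd4 was at 0 in both N4 libraries and in naive replicate 1. Macrophage and monocyte markers summed to 20.9 and 16.9 CPM in N4, 270 and 257 CPM in T4, against 2372 and 2699 CPM in naive libraries. Neutrophil markers summed to 49.1 and 38.7 CPM in N4 and 16.5 and 7.82 CPM in T4, so both naive libraries were far above the others for both cell types. Naive replicate 2 stood apart from naive replicate 1, with neutrophil markers at 25294 CPM, against 2463 CPM. Plasma cell markers summed to 2852 CPM in naive replicate 2 and to 487 CPM in naive replicate 1. In bulk RNA, fewer cells of a type and less RNA per cell cannot be told apart. With 2 libraries against 2, an exact permutation test of a single value cannot go below p = 0.33, so differences were tested with edgeR over all 23003 genes that passed the filter on low counts, which all 8 genes did.

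In N4 against naive cells, Slamf1, Cd48 and Sh2d1a rose (3 of 8, at an edgeR adjusted p under 0.05), where 12.1% of all genes were called, 4.87% higher and 7.18% lower. The median log2 fold change of the 8 genes was 1.35, beside -0.09 for all genes tested. In N4 against T4 cells, Slamf1, Cd48 and Cd244a rose (3 of 8), where 7.96% of all genes were called, 3.48% higher and 4.47% lower, and the median was 1.03, beside -0.20 for all genes. In T4 against naive cells none of the 8 was called by edgeR, where 0.117% of all genes were called. At an unadjusted p under 0.05 there were 3 of 8 in that comparison, and the DESeq2 Wald test called 2, Slamf1 and Slamf6, among 2241 genes in all, where edgeR called 27. The comparisons share libraries, so the counts are not independent of each other. The libraries of the groups did not overlap for 7 genes in N4 against naive, 6 in T4 against naive and 7 in N4 against T4, and for 55.4%, 48.8% and 65.2% of all genes.

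**Figure D1:**
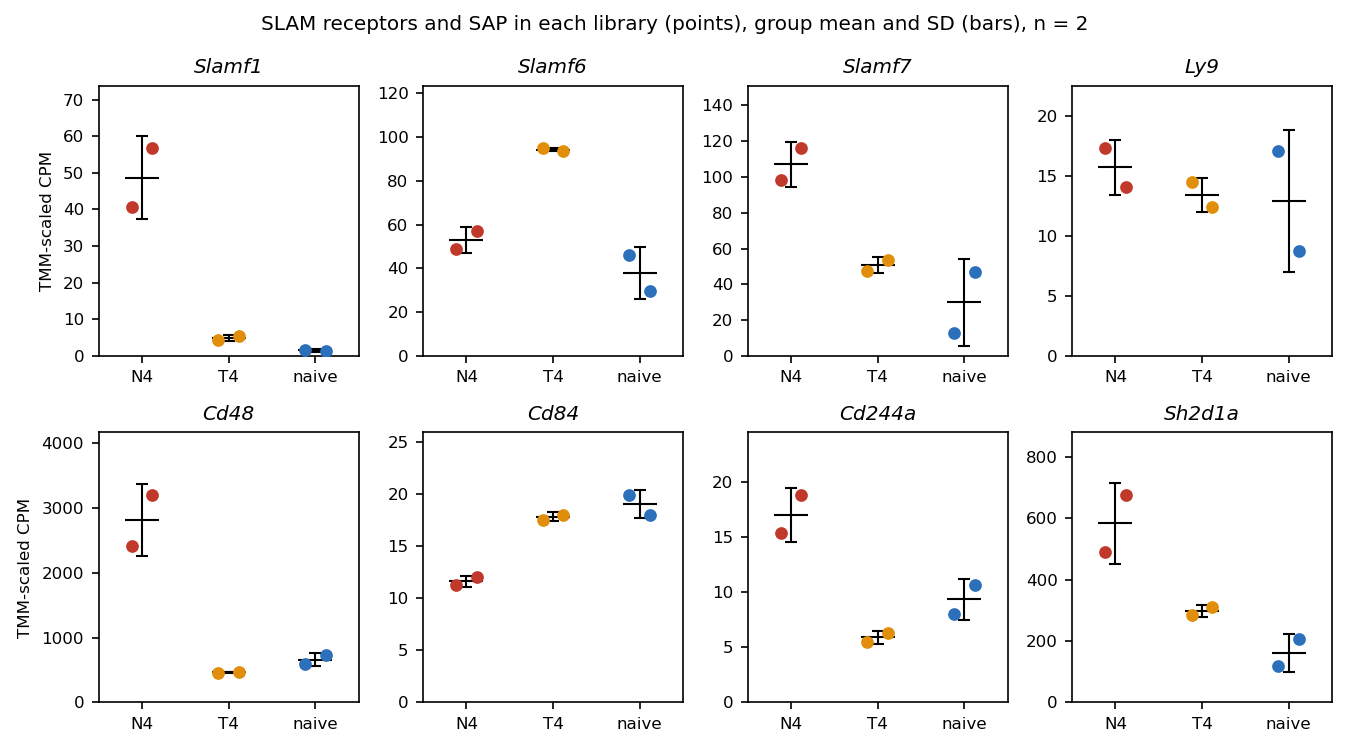
TMM-scaled CPM of the 8 genes (y axis, from 0, a scale for each gene) in the N4, T4 and naive groups (x axis). Points are libraries and bars the mean and SD (n = 2). Slamf1 and Cd48 were highest in both N4 libraries, whereas Slamf6 was highest in both T4 libraries, at 94.8 and 93.6 CPM.

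Slamf1, the founding receptor of the family, which binds itself and is known to come up on activated T cells, had the largest fold change of the 8 in both comparisons of N4. It was at 40.8 and 56.7 CPM in N4 libraries, at 4.26 and 5.53 CPM in T4 libraries and at 1.73 and 1.29 CPM in naive libraries. The 3 groups did not overlap, and T4 lay nearer to naive than to N4. N4 cells held 32.2-fold more than naive cells (log2 fold change 5.01, SE 0.36, edgeR adjusted p = 0.0071) and 9.95-fold more than T4 cells (log2 3.32, SE 0.33, edgeR adjusted p = 0.016). T4 cells stood 3.24-fold above naive cells, which did not pass (log2 1.69, SE 0.31, edgeR adjusted p = 0.10). The call of N4 against naive held under all 13 alternatives run (edgeR or DESeq2 adjusted p = 6e-41 to 0.03). That of N4 against T4 ended without N4 replicate 2 (edgeR adjusted p = 0.06), without T4 replicate 1 (0.082) and without T4 replicate 2 (0.074).

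The Slamf1 counts of N4 cells lay mostly on an annotated transcript with no coding sequence. Slamf1-202 keeps an intron: the fifth exon, of 74 bases in the coding Slamf1-201, runs on for 3463 bases there (chr1:171792369-171795831, GRCm38, plus strand) and ends the transcript. The first switch motif lies in the shared 74 bases, and the last one lies beyond the point where Slamf1-202 ends. The sequences across that point show the bases shared by both transcripts in lower case and the first bases that differ in capitals.
Slamf1-201: gtacagaaatcagggCCTCAAGAGAAGAAA
Slamf1-202: gtacagaaatcagggGTACGTTCTATGCTC
Slamf1-202 was at 35.9 and 53.2 CPM in N4 libraries, at 3.82 and 4.71 CPM in T4 libraries and at 0.314 and 0.717 CPM in naive libraries. It held 88.0% and 93.9% of the Slamf1 counts in N4, 89.8% and 85.2% in T4, against 18.2% and 55.4% in naive libraries. The coding Slamf1-201 was at 4.90 and 3.45 CPM in N4, at 0.436 and 0.816 CPM in T4 and at 1.41 and 0.577 CPM in naive libraries. Both transcripts were thus highest in both N4 libraries, while for the coding one T4 and naive libraries overlapped. The change in shares did not pass the test of transcript usage (edgeR diffSpliceDGE, Simes p per gene, adjusted p = 0.55 for N4 against naive), and the 2 naive libraries, with 759 and 323 Slamf1 counts, differed widely.

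Cd48 and Cd244a encode a ligand and its receptor. Cd48 was by far the most abundant of the receptor genes, at 2418 and 3202 CPM in N4 libraries, 456 and 471 CPM in T4 libraries and 585 and 733 CPM in naive libraries. N4 libraries were several times above all others, and T4 libraries lay below both naive libraries. The difference was 4.27-fold for N4 against naive (log2 2.09, SE 0.29, edgeR adjusted p = 0.013) and 6.06-fold for N4 against T4 (log2 2.60, SE 0.29, edgeR adjusted p = 0.019). For T4 against naive the log2 fold change of Cd48 was -0.51 (SE 0.28, edgeR adjusted p = 0.48), and it turned to 0.07 when libraries were scaled by CD3 and CD8 genes. The N4 against naive call for Cd48 ended without N4 replicate 2 (edgeR adjusted p = 0.06), without T4 replicate 2 (0.052), without T4 replicate 1 (0.050) and in a fit of the 4 libraries alone (0.061). The N4 against T4 call ended when N4 replicate 2 (0.075) or either T4 replicate (0.15 each) was left out. Transcript Cd48-202 held 97.5% to 99.4% of the Cd48 counts in the 6 libraries.

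Cd244a, the CD48 receptor known from natural killer (NK) cells and from activated CD8+ T cells, was at 15.3 and 18.8 CPM in N4 libraries, at 5.49 and 6.28 CPM in T4 libraries and at 8.04 and 10.6 CPM in naive libraries. The groups did not overlap, and T4 was lowest. N4 cells held 2.90-fold more than T4 cells (log2 1.53, SE 0.28, edgeR adjusted p = 0.035). The other 2 differences did not pass, at log2 0.87 (SE 0.28, edgeR adjusted p = 0.095) for N4 against naive and log2 -0.67 (SE 0.28, edgeR adjusted p = 0.35) for T4 against naive. The N4 against T4 call was lost when libraries were scaled by their totals (log2 0.66, adjusted p = 0.18) or by CD3 and CD8 genes (log2 1.16, adjusted p = 0.061), and without any one of the 4 libraries compared (edgeR adjusted p = 0.082 to 0.31).

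Within Cd244a, the coding transcript was lower relative to the gene as a whole in N4 cells, and Cd244a was the one gene of the 8 whose transcript usage was called. Usage was called in 1 of 8 genes for N4 against naive (Simes adjusted p = 0.019, edgeR diffSpliceDGE) and for N4 against T4 (Simes adjusted p = 0.036), and in 0 of 8 for T4 against naive, where 0 of 8 had an unadjusted p under 0.05 (0.21 for Cd244a). Of the 10394 genes tested, 1.19%, 1.41% and 0.375% were called in the same order. The coding Cd244a-201, with 4 switch motifs, held 6 and 0 counts in N4 libraries, 364 and 293 in T4 libraries and 1458 and 1393 in naive libraries. Its share of the Cd244a counts was 0.177% (exact 95% interval 0.0652% to 0.386%) and 0% in N4, 16.4% and 12% in T4, against 41.3% and 52.4% in naive libraries. For 0 of 3845 counts the exact 95% interval reaches up to 0.0959%. The groups did not overlap, with N4 at or near 0 and naive highest.

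Cd244a-203, annotated as a target of nonsense-mediated decay, shares its first exons with the coding form and then joins 2 exons that lie beyond the neighbouring gene Ly9 (chr1:171608450-171608549 and chr1:171609046-171609746, GRCm38, plus strand). It keeps the first of the 4 switch motifs. At the junction, capitals mark the first bases that differ between the transcripts.
Cd244a-201: aggcgtgtttctgagGTGCTGGAGCAGTTG
Cd244a-203: aggcgtgtttctgagATAAGAAAGGAATAT
Cd244a-203 was at 15.2 and 18.3 CPM in N4 libraries, at 4.2 and 5.32 CPM in T4 libraries and at 2.55 and 2.44 CPM in naive libraries. It made up 99.6% and 97.6% of Cd244a counts in N4, 76.5% and 84.7% in T4, against 31.7% and 22.9% in naive libraries. Against the rest of the gene, the coding Cd244a-201 was lower by a log2 change of -6.31 in N4 against naive (adjusted p = 0.019) and of -5.10 in N4 against T4 (adjusted p = 0.038, edgeR, over all transcripts). The retained-intron transcript Cd244a-202 had a lower share in N4 as well, at 0.237% and 0.156% in N4, 6.85% and 3.17% in T4, against 26.9% and 24.6% in naive libraries, and did not pass (log2 relative change -4.86 in N4 against naive, edgeR adjusted p = 0.08). The higher gene-level value of Cd244a in N4 cells therefore lay on the decay transcript, and the coding transcript was lower in both N4 libraries than in every T4 and naive library. The usage calls were lost without N4 replicate 2 (Simes adjusted p = 0.22 for N4 against naive and 0.52 for N4 against T4), without naive replicate 1 (0.18 and 0.22), without naive replicate 2 (0.20 and 0.25), without T4 replicate 1 (0.26 and 0.57), and without T4 replicate 2 (0.25 and 0.50). Without N4 replicate 1 the call of N4 against naive held (0.026) and that of N4 against T4 did not (0.073). Both were lost with the replicate number as a block (0.11 and 0.14) and with no filter on low counts (0.066 and 0.13). With library totals, N4 against naive held (0.029) and N4 against T4 did not (0.054). NK cell markers moved with the coding transcript: their sum was 3.43 and 2.83 CPM in N4, 33.5 and 33.2 CPM in T4, against 94.6 and 145 CPM in naive libraries. All 5 NK markers fell in N4 against naive and 3 of 5 in N4 against T4, with Klra8 at 0 in N4 replicate 2, and their part in the Cd244a values was not tested.

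**Figure D2:**
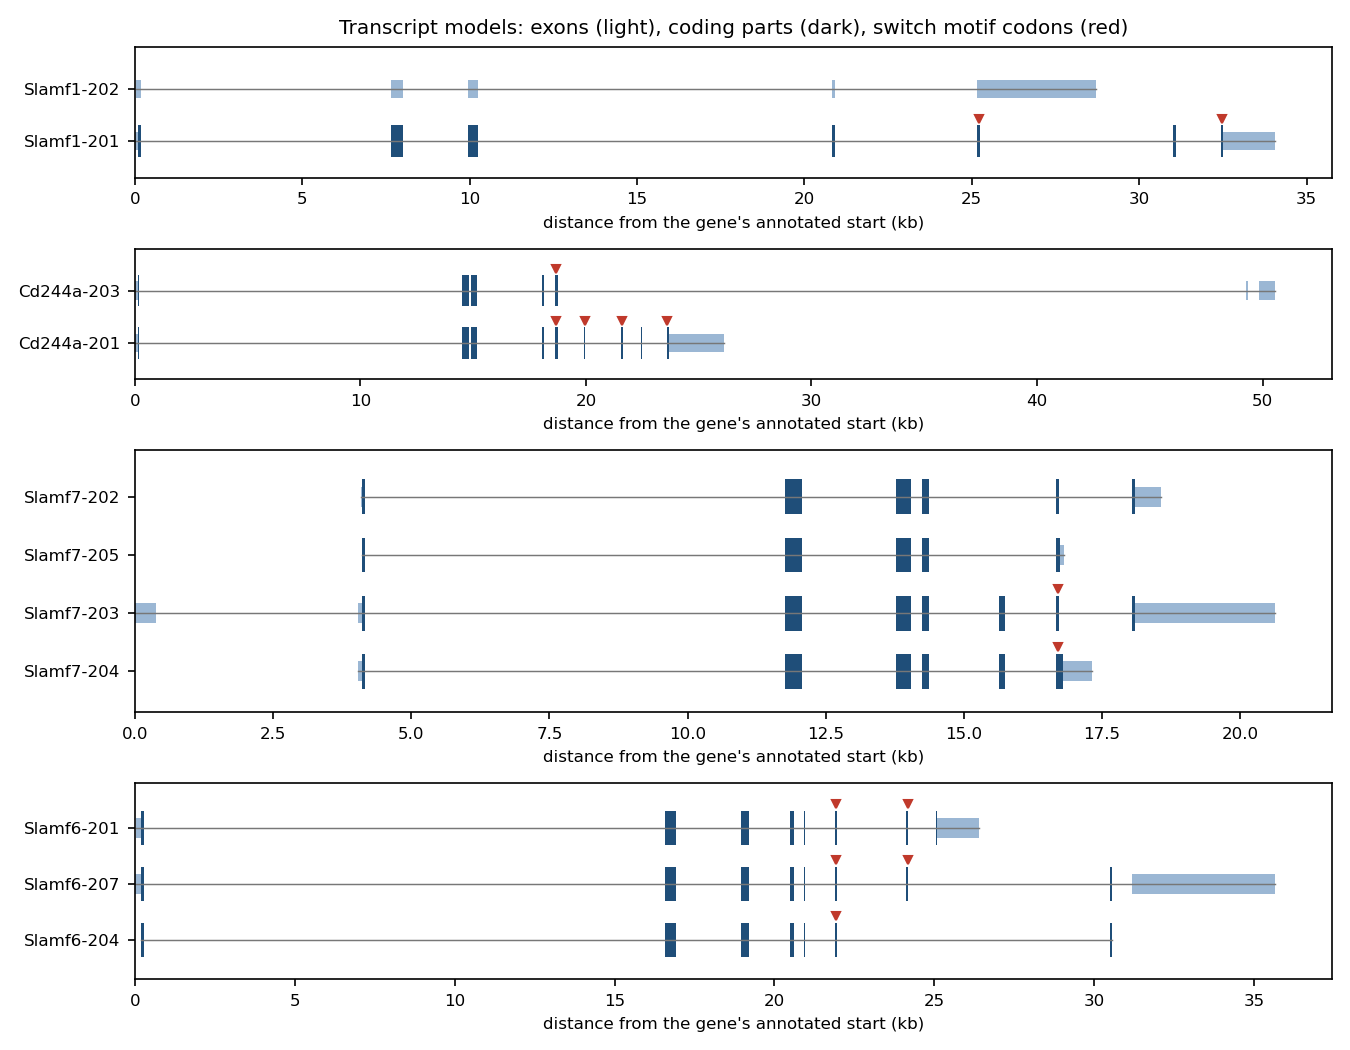
Annotated transcripts of Slamf1, Cd244a, Slamf7 and Slamf6, by distance from the start of the gene in kb (x axis), with exons in light blue, coding parts in dark blue and switch motif codons as red triangles. Slamf1-202 ends in the retained intron, Cd244a-203 leaves the coding form after its first motif, and Slamf7-202 and Slamf7-205 lack a 104-base exon.

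Slamf6 (Ly108), which binds itself and signals through SAP, was highest in T4 cells. It was at 48.8 and 56.9 CPM in N4 libraries, at 94.8 and 93.6 CPM in T4 libraries and at 46.2 and 29.6 CPM in naive libraries. Both T4 libraries lay above the other 4, and the N4 libraries lay just above the naive ones. None of the differences of Slamf6 passed: the log2 fold change was 1.31 for T4 against naive (SE 0.29, edgeR adjusted p = 0.14), -0.83 for N4 against T4 (SE 0.28, edgeR adjusted p = 0.12) and 0.48 for N4 against naive (SE 0.28, edgeR adjusted p = 0.30). T4 against naive passed without naive replicate 1 (log2 1.58, edgeR adjusted p = 0.039), with no filter on low counts (0.039) and in the DESeq2 Wald test (adjusted p = 0.0024), with a highest adjusted p of 0.65 over the 13 alternatives. N4 against T4 passed in 4 of 13 alternatives, among them without naive replicate 1 (edgeR adjusted p = 0.020) and without naive replicate 2 (0.028), over a range of 0.016 to 0.44. Slamf6-207 held 53.4% and 55.6% of the Slamf6 counts in N4, 51.9% and 59.5% in T4, against 55.6% and 49.7% in naive libraries. The retained-intron transcripts Slamf6-205 and Slamf6-202 together held 25.4% and 24.8% in N4, 13.6% and 14.7% in T4, against 18% and 31.7% in naive libraries. The shorter Slamf6-204, which lacks a 72-base exon with the last switch motif, stayed between 3.03% and 6.08% in the 6 libraries.

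Slamf7 (CRACC), known from plasma cells, NK cells and cytotoxic T cells, was at 98.5 and 116 CPM in N4 libraries, at 47.4 and 53.8 CPM in T4 libraries and at 12.9 and 47.1 CPM in naive libraries. N4 lay above every other library, and the naive libraries lay apart from each other, with replicate 2 just under the T4 level. The log2 fold change was 1.84 for N4 against naive (SE 0.58, edgeR adjusted p = 0.094), 1.08 for N4 against T4 (SE 0.57, edgeR adjusted p = 0.26) and 0.75 for T4 against naive (SE 0.57, edgeR adjusted p = 0.62). N4 against naive passed without naive replicate 2 (log2 3.05, edgeR adjusted p = 0.0049) and without naive replicate 1 (log2 1.05, edgeR adjusted p = 0.045), and T4 against naive passed without naive replicate 2 (log2 1.97, edgeR adjusted p = 0.039). N4 against T4 passed without either naive replicate (edgeR adjusted p = 0.017 each), and N4 against naive also with the replicate number as a block (log2 2.03, edgeR adjusted p = 0.043). Over the 13 alternatives the adjusted p of Slamf7 was 0.0049 to 0.26 for N4 against naive, 0.039 to 1.0 for T4 against naive and 0.014 to 0.73 for N4 against T4. Plasma cell markers, of which Tnfrsf17 was at 0 in both N4 libraries, summed to 14.4 and 12.2 CPM in N4, 44.6 and 47.0 CPM in T4, against 487 and 2852 CPM in naive libraries. 3 of the 4 fell in N4 against naive, and their part in the Slamf7 value of naive replicate 2 was not tested.

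The annotated transcripts of Slamf7 differ in the tail. Slamf7-202 and Slamf7-205 leave out an exon of 104 bases (chr1:171637297-171637400, GRCm38, minus strand), which is 2 bases more than a whole number of codons, so the reading frame after it changes and no switch motif is found there. The exon is shown in full.
Slamf7 exon: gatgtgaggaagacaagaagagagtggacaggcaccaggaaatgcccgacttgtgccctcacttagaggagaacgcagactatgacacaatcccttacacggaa
The transcripts without it held 53.6% and 56.3% of the Slamf7 counts in N4 libraries, 29.3% and 29.4% in T4 libraries, and 19.4% and 41.0% in naive libraries. N4 lay above every other library, and the T4 values lay between the 2 naive ones. The usage of Slamf7 transcripts was not called in any comparison (Simes adjusted p = 0.78 for N4 against naive). Counted by level, transcripts with the switch motif were at 45.7 and 50.8 CPM in N4, 33.5 and 38 CPM in T4, against 10.4 and 27.8 CPM in naive libraries.

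**Figure D3:**
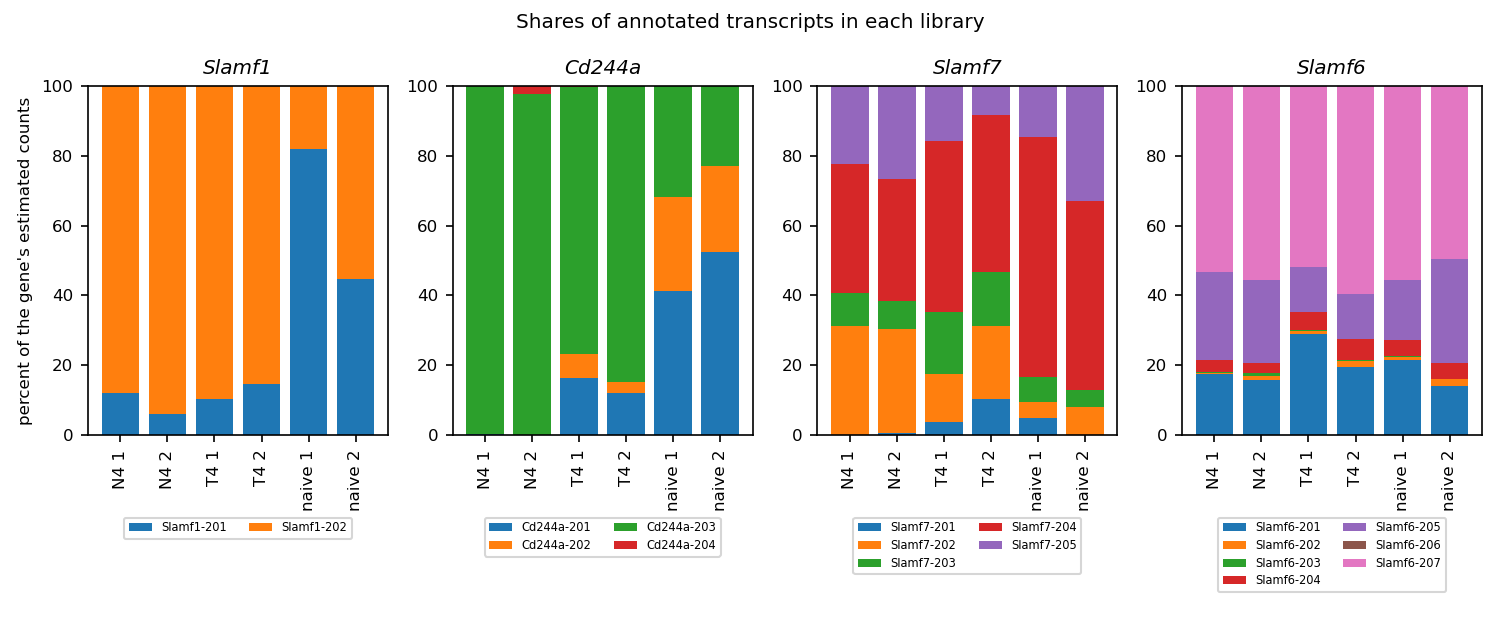
Percent of each gene's estimated counts (y axis) on each annotated transcript, in the 2 libraries of N4, T4 and naive cells (x axis), for Slamf1, Cd244a, Slamf7 and Slamf6. Cd244a-203 fills 99.6% and 97.6% of the N4 bars, and Slamf1-202 fills 88.0% and 93.9% of the N4 bars against 18.2% and 55.4% of the naive bars.

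Ly9 (CD229) and Cd84 both bind themselves and signal through the SAP family. Ly9 was at 17.3 and 14.1 CPM in N4 libraries, at 14.5 and 12.4 CPM in T4 libraries and at 17.1 and 8.73 CPM in naive libraries. The groups overlapped in each comparison, and no comparison of Ly9 passed (log2 0.06 to 0.28, edgeR adjusted p = 0.65 to 0.97). Its direction turned under other scalings: N4 against T4 was at log2 -0.62 with library totals and -0.12 with CD3 and CD8 genes. The transcript Ly9-201, which skips a 330-base exon, had no counts in either N4 library, 6.72% and 3.18% of the Ly9 counts in T4, against 13.1% and 0% in naive libraries. The counts of 0 for Ly9-201 allow shares of up to 0.0785% and 0.104% in N4 and 0.138% in naive replicate 2. Ly9-204, a decay transcript with no switch motif, held 19.4% and 31.6% in N4, 69.3% and 27.9% in T4, against 32.8% and 0% in naive libraries. Ly9-202, with both motifs, held 79.4% and 64.8% in N4, 23.1% and 67.7% in T4, against 53.8% and 97.1% in naive libraries. For both, the T4 libraries and the naive libraries differed widely within their group, and the groups overlapped. Without naive replicate 2, the usage of Ly9 transcripts was called for N4 against naive (Simes adjusted p = 0.032) and N4 against T4 (0.040), which it was not with all libraries (0.51 for N4 against naive).

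Cd84 was at 11.3 and 12 CPM in N4 libraries, at 17.5 and 18 CPM in T4 libraries and at 19.9 and 18 CPM in naive libraries. Both N4 libraries were below all others, and T4 and naive libraries overlapped. Cd84 was the one receptor with a lower estimate in N4 against naive (log2 -0.71, SE 0.22, edgeR adjusted p = 0.094), and it was also lower in N4 against T4 (log2 -0.61, SE 0.22, edgeR adjusted p = 0.14), neither passing. The DESeq2 Wald test called both (adjusted p = 0.005 and 0.029), and the highest adjusted p over 13 alternatives was 0.30 and 0.54. Cd84 is also known from platelets, whose 6 markers summed to 27.2 and 38.6 CPM in N4, 181 and 208 CPM in T4, against 148 and 295 CPM in naive libraries. 5 of the 6 fell in N4 against naive and in N4 against T4, with Gp6 at 0 in both N4 libraries and Gp9 at 0 in N4 replicate 2, and their part in the Cd84 values was not tested.

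Sh2d1a, the gene of the adaptor SAP, was at 490 and 676 CPM in N4 libraries, at 284 and 311 CPM in T4 libraries and at 117 and 206 CPM in naive libraries. The groups did not overlap and stood in the order N4, T4, naive. N4 cells held 3.61-fold more than naive cells (log2 1.85, SE 0.36, edgeR adjusted p = 0.029). The steps between, of log2 0.97 for N4 against T4 (SE 0.35, edgeR adjusted p = 0.13) and log2 0.88 for T4 against naive (SE 0.35, edgeR adjusted p = 0.33), did not pass in the fit of 6 libraries. In a fit of the N4 and T4 libraries alone, N4 against T4 passed (log2 0.92, SE 0.18, edgeR adjusted p = 0.025). That fit called 5281 of all genes, beside 1830 in the fit of 6 libraries. Without naive replicate 1 the estimate was log2 0.92, and without naive replicate 2 it was log2 0.97. N4 against T4 depended on the scaling, at log2 0.09 with library totals. In TPM, which are per length and carry no TMM factor, the 2 groups had about the same level. They were at 389 ± 10.7 TPM in N4 and 404 ± 2.27 TPM in T4 (SD, n = 2). These TPM are scaled to the total of each library, so they are not independent of the result with library totals. The N4 against naive call of Sh2d1a ended without N4 replicate 1 (edgeR adjusted p = 0.066), N4 replicate 2 (0.12), T4 replicate 1 (0.083) or T4 replicate 2 (0.086), and in a fit of the 4 libraries alone (0.085). Sh2d1a-201 held 89.4% to 92.3% of its counts in all 6 libraries. Sh2d1a shares exon bases with Tenm1, on the opposite strand, which was at 0 to 0.186 CPM, and Slamf7 with the antisense gene Gm37787, at 0.0638 to 0.322 CPM. The kit does not mark strand, so reads in the shared bases cannot be assigned with certainty.

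**Figure D4:**
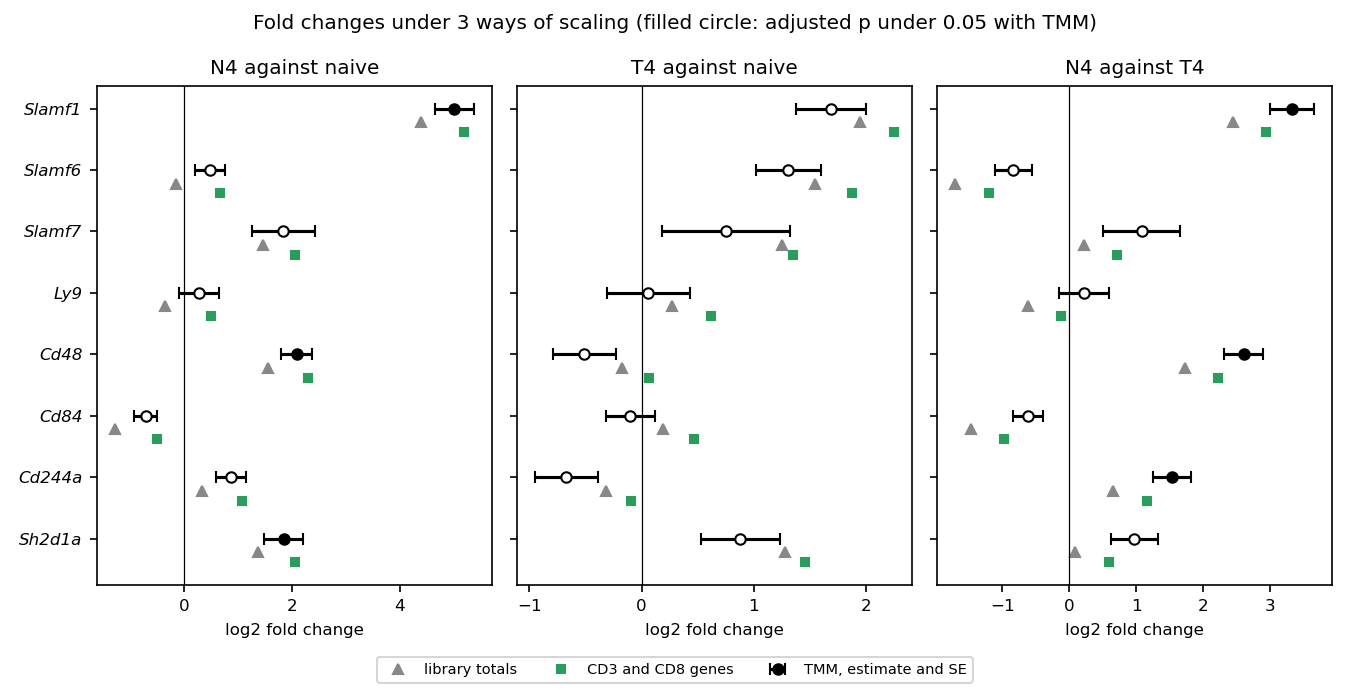
Log2 fold change (x axis) of the 8 genes in the 3 comparisons, with TMM scaling (circles, with SE, filled where the edgeR adjusted p is under 0.05), library totals (triangles) and CD3 and CD8 genes (squares). Slamf1 lies right of 0 under every scaling shown, whereas Ly9 changes side in N4 against naive and N4 against T4.

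The scaling shifted all genes together. The median log2 fold change over all genes was -0.09, 0.00 and -0.20 with TMM for N4 against naive, T4 against naive and N4 against T4. It was -0.65, 0.30 and -1.05 with library totals, and 0.09, 0.57 and -0.55 with CD3 and CD8 genes. Against those medians, the Slamf6 value of log2 -0.15 and the Ly9 value of log2 -0.35 for N4 against naive with library totals lay above the median of all genes.

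Compared per length, as TPM summed over the annotated transcripts, the family spanned a wide range in each group. TPM carry no TMM factor, so differences between groups in TPM are not those of the TMM-scaled CPM above. Cd48 was highest everywhere, at 1409 ± 3.09 TPM in N4, 473 ± 21.1 TPM in T4 and 503 ± 148 TPM in naive cells (SD, n = 2), and made up 94.2% and 94.8% of the summed receptor TPM in N4, 81.6% and 81.7% in T4, against 91.4% and 90.2% in naive libraries. Sh2d1a was next in every group. Below them the order in N4 was Slamf7 (47.7 TPM), Slamf6 (14.5), Slamf1 (6.89), Cd244a (5.47), Ly9 (3.92) and Cd84 (3.35), where only Ly9 and Cd84 overlapped between libraries. In T4 cells it was Slamf6 (44.7 TPM), Slamf7 (40.3), Cd84 (9.70), Ly9 (6.67), Cd244a (3.63) and Slamf1 (1.44), with no neighbours overlapping. In naive cells it was Slamf7 (17.1 TPM), Slamf6 (16.3), Cd84 (7), Ly9 (5.47), Cd244a (3.91) and Slamf1 (0.486), where Slamf7 and Slamf6 overlapped, as did Cd84 with Ly9 and Ly9 with Cd244a. Slamf1 thus ranked last among the 8 in T4 and naive cells, and above Cd244a, Ly9 and Cd84 in N4 cells. Dividing gene counts by the longest transcript instead changed the rank of 4 genes for N4, of 2 for T4 and of 4 for naive cells.

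**Figure D5:**
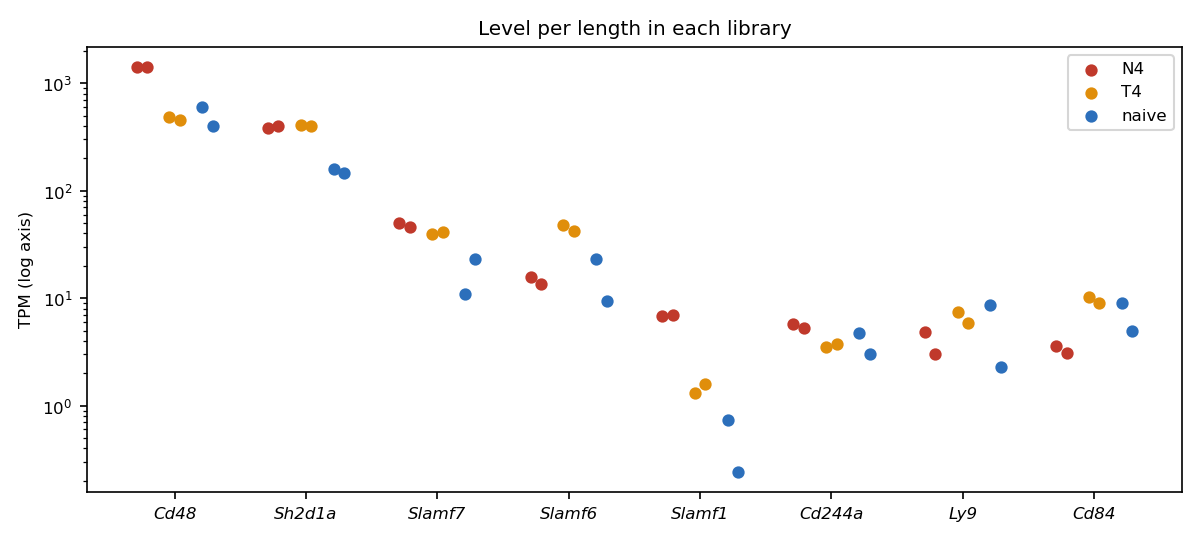
Level per length in TPM (y axis, log scale) of the 8 genes, ordered by their N4 mean (x axis), with the 2 libraries of each group as points (N4 red, T4 orange, naive blue). Cd48 and Sh2d1a stand above the other genes in every library, and Slamf1 spans the widest range, 0.240 to 6.93 TPM.

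Of 19 genes of adaptors, kinases and phosphatases around SAP, 0 rose and 3 fell in N4 against naive (15.8%, where 12.1% of all genes were called), and the median log2 fold change was -0.43 beside -0.09 for all genes, with or without the 2 genes at 0 set to a floor of 3 counts per library. The 3 were Sh2d1b1 and Sh2d1b2, which encode the SAP relatives EAT-2 and ERT of NK cells, and Dok1, an adaptor that restrains kinase signals. Sh2d1b1 was at 0 CPM in both N4 libraries, at 1.06 and 1.32 CPM in T4 libraries and at 6.85 and 6.60 CPM in naive libraries (edgeR adjusted p = 0.0071 for N4 against naive and 0.013 for N4 against T4). It moved with the NK markers given above, whose part was not tested. Dok1 was at 4.6 and 5.69 CPM in N4, 14.6 and 13.6 CPM in T4, against 21.7 and 13.3 CPM in naive libraries (edgeR adjusted p = 0.026 for N4 against naive). In N4 against T4, 0 of 19 rose and 2 fell, Sh2d1b1 and Dok1 (10.5%, where 7.96% of all genes were called). None of the 19 was called by edgeR in T4 against naive, with 4 at an unadjusted p under 0.05. Fyn, the kinase that SAP recruits, was at 50.6 and 36.6 CPM in N4, 67.7 and 56.5 CPM in T4, against 39.7 and 21.2 CPM in naive libraries, and passed in no comparison (edgeR adjusted p = 0.37 for N4 against naive).

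Of the other family members Slamf8, Slamf9 and Cd2, 1 of 3 fell in N4 against naive, where 7.18% of all genes were called lower. It was Cd2, the adhesion receptor that also binds CD48 in mice, at 60.0 and 53.9 CPM in N4, against 230 and 112 CPM in naive libraries (log2 -1.59, SE 0.38, edgeR adjusted p = 0.047). Of 9 tested genes of cytokines, transcription factors and a receptor read together with SAP, 1 was called in N4 against naive (11.1%, where 12.1% of all genes were called). In N4 against T4 it was 2 (22.2%, where 7.96% of all genes were called). The median log2 fold change of this list was -0.40 and 0.07, beside -0.09 and -0.20 for all genes. Ifng rose in both comparisons, at 117 and 39.3 CPM in N4, 12.3 and 12.3 CPM in T4, against 3.08 and 5.88 CPM in naive libraries (edgeR adjusted p = 0.017 and 0.049). Cxcr5, a homing receptor, fell in N4 against T4 (edgeR adjusted p = 0.031). It was highest in T4, at 0.122 and 0.454 CPM in N4, 5.40 and 5.64 CPM in T4, against 0.963 and 1.51 CPM in naive libraries. Markers of B cells, which are known to express Cxcr5, summed to 3.96 and 2.42 CPM in N4, 55.8 and 53.1 CPM in T4, against 25.6 and 64.7 CPM in naive libraries. Of the 6 tested, 4 fell in N4 against T4, with Cr2, Fcer2a and Pax5 at 0 in both N4 libraries, and their part in the Cxcr5 value was not tested. Of 9 genes read together with Slamf6 in stem-like cells, 4 fell in N4 against naive, among them Lef1, Bach2 and Il7r. In N4 against T4, 4 fell, among them Cxcr5, Id3 and Myb. None was called higher in either comparison, where 7.18% and 4.47% of all genes were called lower. Higher estimates that did not pass were those of Xcl1 (log2 2.35) and Myb (log2 0.10) in N4 against naive. In N4 against T4 they were those of Xcl1 (log2 2.64) and Il7r (log2 0.88). The median log2 fold change of the 9 was -1.19 and -0.72, beside -0.09 and -0.20 for all genes. Of 9 genes read together with Cd244a in exhausted or terminal cells, Lag3 and Havcr2 rose and Cx3cr1 fell in N4 against naive, and Havcr2 rose and Cx3cr1 fell in N4 against T4. These were 33.3% and 22.2% of the list, where 12.1% and 7.96% of all genes were called. The median log2 fold change of these 9 was 0.07 and 0.01, beside -0.09 and -0.20 for all genes. Cx3cr1 was at 0.72 and 1.04 CPM in N4, 3.57 and 3.18 CPM in T4, against 8.04 and 7.37 CPM in naive libraries. The NK cell, macrophage and monocyte markers given above had the same order of groups, and their part in the Cx3cr1 values was not tested. Havcr2, which encodes the inhibitory receptor TIM-3, was at 5.39 and 7.70 CPM in N4, 1.29 and 1.9 CPM in T4 and 1.08 and 1.55 CPM in naive libraries (edgeR adjusted p = 0.025 and 0.042). In T4 against naive no gene of these 4 lists was called by edgeR, with 0, 3, 6 and 5 at an unadjusted p under 0.05.

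Genes with the most similar pattern over the 6 libraries, by the root mean square difference of centred log2 CPM, differed between the members. Slamf1 was nearest to Pclaf, Zdhhc2 and Serpinb9, at 0.50, 0.50 and 0.53. The difference is not scaled to a gene's own range, which was 1.29 to 56.7 CPM for Slamf1 and 11.3 to 19.9 CPM for Cd84. Its size therefore cannot show which member was matched more closely. Slamf7 was nearest to the histone genes Hist1h2ag, Hist1h2ah and Hist1h2ap, at 0.20 each, which are similar copies whose counts could be split between them. Cd48 was nearest to Pigf (0.09), Hprt (0.12) and Arl6ip6 (0.12), Slamf6 to Ccdc34 (0.12), Cdk6 (0.13) and Gtf2f2 (0.15), and Sh2d1a to Gnptab (0.11), Plek (0.14) and Dctpp1 (0.16). The nearest to Cd244a were Skp1a, Nubpl and Ramac (0.06 each), to Cd84 Tmsb10 (0.07), Jmjd1c and Usf2 (0.08 each), and to Ly9 Dpp3 (0.06), Myh9 and Sucla2 (0.07 each). These distances describe 6 libraries and carry no test.

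The receptor genes share a locus, and their values differed within it. Inside the same 394.0 kb, Slamf1 and Cd48 rose in N4 against naive while their neighbour Cd84 had a lower estimate. Of the 7 protein-coding genes that lie between or beside them, 5 were tested and 1 was called in N4 against naive and in N4 against T4, where 12.1% and 7.96% of all genes were called, and with 5 genes nothing is read from that count. It was F11r, which encodes a junctional adhesion protein, at 0 CPM in both N4 libraries, 0.993 and 1.70 CPM in T4, against 5.92 and 8.55 CPM in naive libraries (edgeR adjusted p = 0.0071 and 0.016). The macrophage and monocyte markers given above stood in the same order, with 11 of 12 lower in N4 against naive and 4 of 12 in N4 against T4, and Adgre1 and Spic at 0 in both N4 libraries. Dendritic cell markers summed to 32.8 and 38.9 CPM in N4, 222 and 241 CPM in T4, against 770 and 680 CPM in naive libraries. Of those 6 markers, 4 were lower in N4 against naive and 2 in N4 against T4, with Siglech at 0 in both N4 libraries, and the part of either list in the F11r values was not tested.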

How the data were processed

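Poly(A) RNA of 6 libraries was analysed. The authors deposited estimated counts per gene and per transcript as whole numbers that are not normalized. The kit named in the labels' protocols is a SMARTer ultra-low input poly(A) kit, which does not mark strand. Per the submitters' processing notes, the build was mm39 and, with no role given, the tools were StringTie 2.1.0, STAR 2.7.1a, DESeq2 1.30.1, SAMtools 1.9 and R 4.0.5. Library totals were 269033066 to 335968843. Estimates made from coverage scale with an assumed read length, which the sources used here do not state, so intervals and floors, which express counting error alone, may be too narrow. GENCODE M21 models, on GRCm38, served for symbols (94.0% of genes), lengths, sequences and coordinates, and 36 of the 37 annotated transcripts of the 8 genes were in the table.

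Genes were tested with edgeR 4.0.16 (limma 3.58.1, R 4.3.3): TMM, filterByExpr by group, and a quasi-likelihood test of a model with 1 mean per group on the 6 libraries, called at 0.05 after Benjamini-Hochberg adjustment over 23003 genes. The common coefficient of biological variation was 0.67, with 3 residual and 3.1 prior degrees of freedom. SE is the log2 fold change over the square root of F. Transcript usage was tested with diffSpliceDGE on 54550 transcripts. Between replicates the chi-square per degree of freedom was 96.7 to 1883.6, and log2 CPM values correlated at 0.915 to 0.952. The chi-square scales with the estimated counts, whose scale relative to reads is not known, so it cannot show an excess over sampling noise. No library was treated as a duplicate. Alternatives were DESeq2 1.42.0 (size factors or Wald test), other scalings, no filter, 2 groups alone, a replicate block and each library left out. The scripts were tested on simulated data. Genes named are the 8 members, the called genes of the gene lists (at most 5 a list and comparison, by smallest p), the 3 nearest in pattern (mean log2 CPM 3 or higher), and called neighbours. Fyn, Xcl1, Cd3d and Cd8b1 were named outside this rule, after their values were seen. The members and lists were chosen with earlier results of these data known. Protein sequences were not used here. A called gene of the stem-like list and a gene of the B cell marker list are not reported here.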

Additional observations from a re-analysis of the deposited data

How the results depend on the processing

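Of 312 values of single genes under an alternative, 256 kept their direction and side of the threshold, 25 came to pass it, 21 ceased to pass it and 10 turned direction. None of the 10 was past the threshold. Ly9 turned to -0.35 with library totals and -0.13 without naive replicate 2 in N4 against naive, to -0.62 with library totals and -0.12 with CD3 and CD8 scaling in N4 against T4, and to -0.35 without naive replicate 2 and -0.09 without T4 replicate 1 in T4 against naive. Its estimates with a library left out lay between -0.13 and 0.72 in N4 against naive, 0.06 and 0.36 in N4 against T4, and -0.35 and 0.53 in T4 against naive. Slamf6 turned to -0.15 with library totals in N4 against naive. In T4 against naive, Cd84 turned to 0.19 with library totals and 0.47 with CD3 and CD8 scaling, and Cd48 to 0.07 with CD3 and CD8 scaling. The cause was not tested.

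Of the 8 genes, 3 were called in N4 against naive. This became 6 by the Wald test of DESeq2, 1 with the 2 groups alone, 4 with the replicate block, and 1 to 4 with a library left out. In N4 against T4 it was 3, with 5 by the Wald test, 7 with the 2 groups alone, 3 with the replicate block, and 0 to 6 with a library left out. In T4 against naive it was 0, with 2 by the Wald test, 2 with no filter, 0 with the replicate block, and 0 to 1 with a library left out. The usage count of 1 in N4 against naive was 0 with no filter and with the replicate block. With a library left out, Cd244a stayed called there only without N4 replicate 1, and Ly9 was called instead without naive replicate 2. In N4 against T4 the usage count was 0 with library totals, with no filter and with the replicate block. Leaving out any single library ended the Cd244a call there, and Ly9 was called without naive replicate 2. The usage count in T4 against naive was 0 throughout.

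Over all genes, 2772 were called in N4 against naive (1120 higher and 1652 lower). This became 6625 by the Wald test, 4257 with no filter, 1044 with the 2 groups alone, 3620 with the replicate block, and 639 to 4487 with a library left out. The split was 695 higher and 1777 lower with library totals and 1508 and 1259 with CD3 and CD8 scaling. In N4 against T4, 1830 were called (801 higher and 1029 lower), with 6204 by the Wald test, 3834 with no filter, 5281 with the 2 groups alone, 3367 with the replicate block, and 0 to 4547 with a library left out: 0 without N4 replicate 2 or T4 replicate 2, and 45 without T4 replicate 1. The split was 320 and 1736 with library totals and 404 and 1194 with CD3 and CD8 scaling. In T4 against naive, 27 were called, with 0 by DESeq2 size factors in edgeR, 2241 by the Wald test, 53 with library totals, 62 with CD3 and CD8 scaling, 956 with no filter, 0 with the 2 groups alone, 130 with the replicate block, and 0 to 357 with a library left out.

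Differences between replicate 1 and replicate 2, over all genes tested, correlated at 0.02 for N4 and T4, 0.08 for N4 and naive, and 0.04 for T4 and naive. With 2 libraries in each group, these values cannot decide whether the replicate numbers pair the samples. Where a library was left out, its group kept 1 library, which was assumed to vary like the others. Levels per length moved when gene counts were divided by the longest transcript, and levels of different genes are therefore approximate. Low counts limit the transcript shares of Slamf1 in naive cells.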
